A study of Mus musculus with 28 samples.

Results

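Amino acid transporters of the solute carrier (Slc) families were followed through Sertoli cells of the mouse testis. The members were the genes whose symbols belong to the Slc1, Slc3, Slc6, Slc7, Slc36, Slc38 and Slc43 families, without antisense or pseudogene names ending in os or ps. This rule took 62 of the 43280 gene rows, and it used no measured value. By family they were 7 Slc1, 2 Slc3, 20 Slc6, 15 Slc7, 4 Slc36, 11 Slc38 and 3 Slc43 genes. At least 1 read was found for 61 members, and Slc7a12 had none in the 28 libraries.

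Sertoli cells line the seminiferous tubule and feed the germ cells behind the blood-testis barrier, so amino acids reach most germ cells by way of transporters in the Sertoli cell membrane. Slc7 light chains bind a heavy chain, Slc3a2 (the CD98 heavy chain) or Slc3a1, and exchange 1 amino acid for another; the cationic carriers Slc7a1, Slc7a2 and Slc7a3 work without a heavy chain. Slc1 carriers take up glutamate or small neutral amino acids, Slc38 carriers take up glutamine and other neutral amino acids with sodium, Slc36 carriers are driven by protons, and Slc43 carriers let large neutral amino acids pass. The Slc6 family is broader, since beside amino acid carriers it holds the carriers of taurine, creatine, serotonin and other amines.

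The libraries fell into a pair of sets, both of poly(A) RNA and both sequenced on an Ion Proton instrument. The first set was 18 libraries of whole testis from NANOS2 KO mice on a CD1 background, 2 for each day between 42 and 50 days after an injection of retinoic acid (RA). NANOS2 is needed for male germ cells to persist, and the submitters describe these testes as germ cell-deficient. The second set was 10 libraries of cells sorted for red fluorescent protein (RFP) from mice heterozygous for the RFP reporter and positive for Amh-Cre, a Cre recombinase driven in Sertoli cells by the anti-Mullerian hormone promoter. These mice derived from a C57BL/6 x Amh-Cre or a C57BL/6 x 129s4/SvJae background, as labelled. The 5 groups of 2 sorted libraries were named for the stages most enriched in them: group A for stages XI-XII, group B for I-III, group C for IV-VI, group D for VII-VIII and group E for IX-X. Mice of both sets had received WIN 18,446, a blocker of RA synthesis, for 7 days and RA on the following day, which brings the tubules into step. The labels do not say whether the 2 libraries of a group came from separate animals, so p-values measure the spread between libraries, which may be technical.

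Gene counts summed to between 1336742 and 4370138 per KO library and to between 1901743 and 5279746 per sorted library. Levels are CPM, that is counts scaled to the library total. Levels of single genes are ranked against each other as CPM per kilobase (kb) of exon. Shares of the member sum are of plain CPM, without division by exon length. Sertoli cell markers were present in both sets: a list of 24 summed to 19454 CPM in KO testes and 13640 CPM in sorted cells, with none at 0. Sorted libraries also held germ cell RNA, since 17 markers of elongating spermatids summed to 216 CPM in KO testes and 14327 CPM in sorted cells. KO libraries, being of whole testis, held RNA of the other somatic cells: the sums were 4893 CPM in KO testes and 197 CPM in sorted cells for 9 Leydig cell markers, 1318 CPM in KO testes and 129 CPM in sorted cells for 7 stroma markers, and 523 CPM in KO testes and 292 CPM in sorted cells for 7 macrophage markers.

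The 62 members summed to 4104 ± 226 CPM in KO testes and 2256 ± 295 CPM in sorted cells (SD, n = 18 and 10). A few genes made up most of this. In KO testes the top 3 members, Slc7a5, Slc3a2 and Slc7a1, held 45% of the member sum; in sorted cells Slc7a5, Slc3a2 and Slc7a4 held 53%. The Slc7 family held 52.4% of the member sum in KO testes and 52.5% in sorted cells, the Slc38 family 15.8% in KO testes and 15.7% in sorted cells, and the Slc3 family 14.7% in KO testes and 15.6% in sorted cells. The Slc1 family held 3.30% in KO testes and 0.865% in sorted cells, and the Slc43 family 4.49% in KO testes and 8.51% in sorted cells.

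Per kb of exon, Slc7a5 stood first in both sets, at 208 ± 25.6 CPM per kb in KO testes and 149.6 ± 15.9 in sorted cells. It encodes the light chain of a carrier of leucine and other large neutral amino acids. Its heavy chain partner Slc3a2 stood second, at 171 ± 18.6 CPM per kb in KO testes and 99.7 ± 10.9 in sorted cells. The third in KO testes was Slc7a8, another light chain of Slc3a2 for neutral amino acids, at 78.6 ± 12.8 CPM per kb in KO testes and 9.28 ± 2.36 in sorted cells. The third in sorted cells was Slc7a4, which resembles the cationic carriers in sequence, at 59.6 ± 5.997 CPM per kb in KO testes and 69.5 ± 29.6 in sorted cells. Slc38a9 and Slc38a7, both of the lysosome, stood lower per kb than these, though in sorted cells Slc38a7 came close to Slc7a8. Slc38a9, an arginine sensor of the mTORC1 kinase complex at the lysosome, stood at 1.76 CPM per kb in KO testes and 1.19 in sorted cells. Slc38a7, a lysosomal carrier of glutamine and asparagine, stood at 14.1 CPM per kb in KO testes and 8.27 in sorted cells. A mean of at least 1 CPM per kb was reached by 30 members in KO testes and by 25 in sorted cells.

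**Figure D1:**
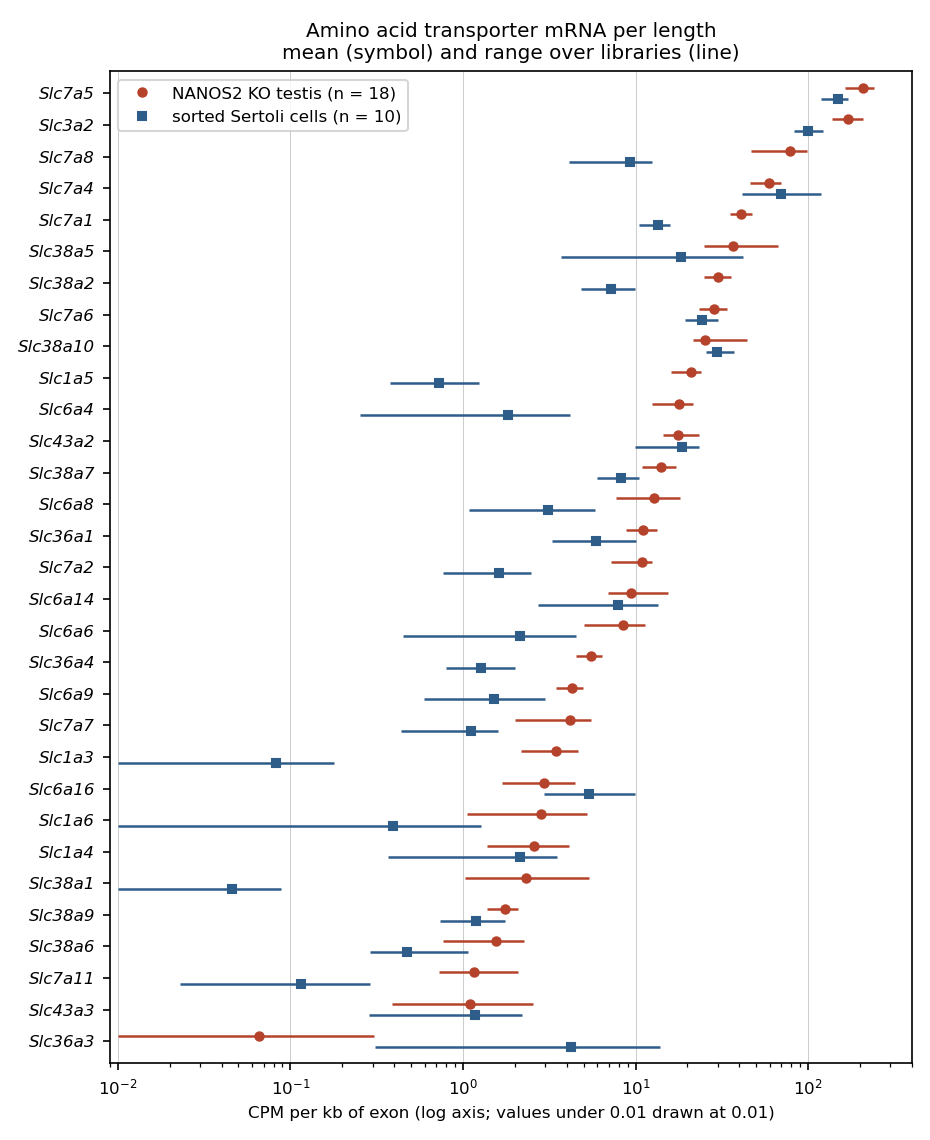
Mean (symbol) and range (line) of CPM per kb of exon, on a log axis, for each member with a mean of at least 1 CPM per kb in either set; KO testes are drawn above sorted cells. Slc7a5 and Slc3a2 lead in both sets, at 208 and 171 CPM per kb in KO testes and at 150 and 99.7 CPM per kb in sorted cells.

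The other heavy chain, Slc3a1, which serves light chains of kidney and gut, was nearly absent. It had 10 counts over the 18 KO libraries and 5 counts over the 10 sorted libraries, and its light chain Slc7a9 had 4 counts in each set. In total, 27 members averaged under 1 CPM in KO testes, 29 in sorted cells and 23 in both. Among these 23 were Slc6 carriers of the nervous system, gut and kidney, such as the GABA carrier Slc6a11, the dopamine carrier Slc6a3 and the glycine carrier Slc6a5. Such members were left out of the tests by a filter on low counts: 31 members were tested within the KO set, 32 within the sorted set and 35 in the comparison of the sets.

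The stage groups ask which transporters change as Sertoli cells pass through the cycle of the seminiferous epithelium. At stages VII-VIII, when spermatids are released and preleptotene spermatocytes move toward the barrier, 6 of the 32 tested members were higher than in the mean of the other 4 groups and none was lower. They were Slc6a4, Slc7a14, Slc36a3, Slc7a4, Slc6a8 and Slc38a5. By this test (edgeR quasi-likelihood, Benjamini-Hochberg adjusted p under 0.05), 18.8% of the tested members were higher and 0% lower, against 4.36% higher and 4.28% lower of all 14331 genes tested. The median log2 difference was 0.23 over the tested members and 0.04 over all genes tested.

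Slc6a4, the serotonin transporter (chr11:76998603-77032340 in GRCm38), had 18.98 and 18.03 CPM in the group D libraries, against 1.15 and 1.16 CPM in group A, 3.15 and 6.41 in group B, 13.1 and 15.5 in group C and 3.599 and 1.76 in group E. Both group D libraries lay above the 8 others, and the group C libraries came next. The difference was 2.21 on the log2 scale (SE 0.33, edgeR adjusted p = 0.00155). Slc7a14, a relative of the cationic carriers known from lysosomes (chr3:31202858-31310378), had 15.3 and 16.7 CPM in the group D libraries, against 2.67 and 1.55 CPM in group A, 1.58 and 2.88 in group B, 9.43 and 7.92 in group C and 5.49 and 2.85 in group E. Here too group D lay above the 8 other libraries and group C came next. The difference was 2.08 on the log2 scale (SE 0.35, edgeR adjusted p = 0.00265). Slc36a3, an orphan relative of the proton-driven carriers (chr11:55124815-55151708), had 16.4 and 32.7 CPM in the group D libraries, against 3.06 and 4.85 CPM in group A, 3.15 and 2.56 in group B, 0.725 and 10.97 in group C and 11.9 and 13.4 in group E. Group D lay above the other libraries, but its own pair was wide apart. The difference was 2.14 on the log2 scale (SE 0.49, edgeR adjusted p = 0.0162).

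Slc7a4 (chr16:17572018-17583214) was the most abundant of the 6 and had 491 and 439 CPM in the group D libraries, against 183 and 171 CPM in group A, 177 and 209 in group B, 217 and 439.6 in group C and 266 and 292 in group E. The second group C library overlapped the group D pair. The difference was 0.94 on the log2 scale (SE 0.23, edgeR adjusted p = 0.0256). Part of its exons, 554 bases, overlaps P2rx6 on the other strand, and whether counting used strand is not given in the sources used here. Slc6a8, the creatine transporter (chrX:73673150-73682502), had 29.8 and 30.3 CPM in the group D libraries, against 8.404 and 5.63 CPM in group A, 12.6 and 8.97 in group B, 11.97 and 30.2 in group C and 14.02 and 11.2 in group E. Group C replicate 2 again reached the level of group D while replicate 1 did not. The difference was 1.29 on the log2 scale (SE 0.33, edgeR adjusted p = 0.0268). Slc38a5, a sodium-coupled carrier of glutamine and histidine (chrX:8271133-8280179), had 94.2 and 64.8 CPM in the group D libraries, against 24.8 and 20.96 CPM in group A, 15.2 and 12.5 in group B, 8.34 and 56.4 in group C and 50.2 and 62.3 in group E. Group D was highest, group E next, and group C replicate 1 lowest of the 10 libraries. The difference was 1.48 on the log2 scale (SE 0.42, edgeR adjusted p = 0.0445).

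**Figure D2:**
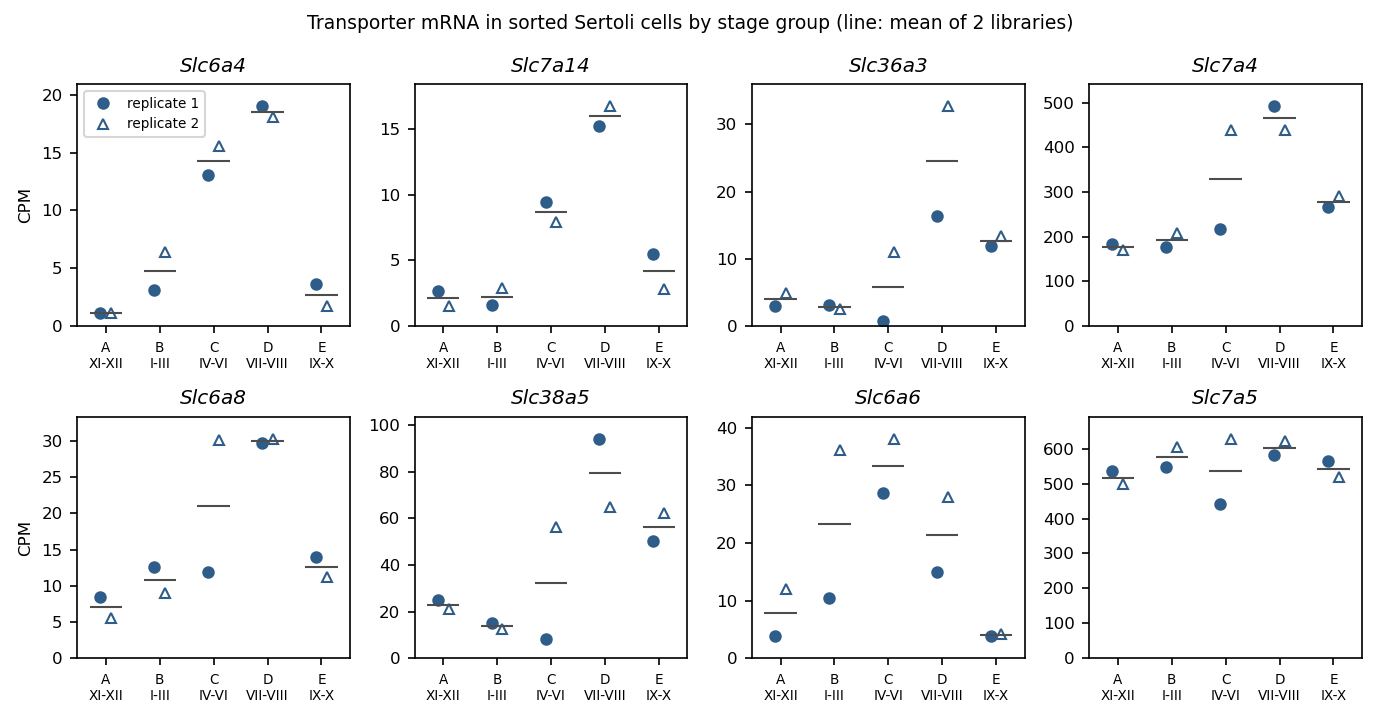
CPM in each sorted library by stage group, in the order of the cycle, for the 6 members higher at stages VII-VIII, for the taurine carrier Slc6a6 and for Slc7a5, which was not called; filled circles are replicate 1, open triangles replicate 2, and bars the mean of the 2. Slc6a4 and Slc7a14 are highest in group D and next highest in group C, while Slc7a5 lies between 442 and 629 CPM in all 10 libraries.

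Both group D libraries exceeded each of the 8 other sorted libraries for 4 of the 32 tested members (Slc36a3, Slc38a5, Slc6a4 and Slc7a14), or 12.5%, against 6.53% of all genes tested, and lay below them for 0 members, against 7.62% of all genes. The call for Slc6a4 held in each of the 10 fits that left out 1 library. Slc7a14 lost its call without group D replicate 2 (adjusted p = 0.0506), Slc36a3 without either group D library (adjusted p up to 0.32), Slc6a8 without either group D library or group E replicate 2 (up to 0.182), Slc7a4 without any 1 of the group D and E libraries (up to 0.217), and Slc38a5 without any 1 of the group B, D and E libraries (up to 0.337), all by edgeR. With limma the calls of Slc38a5 (adjusted p = 0.0582 on log2(CPM + 1) and 0.0702 on log2(CPM + 0.1)) and, on the second scale, of Slc36a3 (0.0685) were lost.

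The mix of RNA also differed in group D. The elongating spermatid markers summed to 5069 CPM in group D and to between 13742 and 19127 CPM in the other groups. For 5 blood markers the sum was 38.6 CPM in group D and between 164 and 744 CPM in the others. For 7 macrophage markers it was 154 CPM in group D and between 243 and 379 CPM in the others. For 7 endothelium markers it was 35.4 CPM in group D and between 13.9 and 30.3 CPM in the others. The 9 Leydig cell markers summed to 388 CPM in group D and to between 83.9 and 224 CPM in the other groups, with the defining genes Insl3 and Lhcgr at 0 in all sorted libraries. The 24 Sertoli markers summed to 15504 CPM in group D and to between 12350 and 14155 CPM in the other groups. Within group C they summed to 11410 CPM in the replicate low for Slc7a4, Slc6a8, Slc36a3 and Slc38a5, and to 16900 CPM in the other. Mitochondrial genes held 12.5% and 4.61% of counts in the group D libraries and 11.4% and 6.06% in group E. In the libraries of the other groups they held between 4.71% and 9.17%. The part of these shifts in the 6 differences was not tested. The 2 libraries of a group also differed more in the sorted set than on any KO day. A chi-square per gene between them was 22.7 in group D, 10.9 in group B and 33.1 in group A, against 10.7 on day 49, the highest of the KO days.

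RefSeq's promoter table for GRCm38.p6 held 44 of the 62 members, among them 4 of the 6 genes higher at stages VII-VIII. The 250 bases before RefSeq's transcription start are shown for Slc6a4 and Slc36a3, which were called in group D, and for Slc7a11 for comparison. The windows of Slc7a14 and Slc38a5 were searched but are not shown: GENCODE M21 places these starts further upstream, so that 59 and 248 bases of them lie inside the GENCODE genes. Slc7a11 is the cystine-glutamate exchanger, a known target of the amino acid stress response, and 1 base of its window lies inside the GENCODE gene. The motifs were searched on both strands: the amino acid response element TGATGNAA, the androgen receptor half-site AGAACA and the retinoid receptor half-site AGGTCA. Capitals mark the matches.
Slc6a4 (chr11:76998347-76998596, plus strand): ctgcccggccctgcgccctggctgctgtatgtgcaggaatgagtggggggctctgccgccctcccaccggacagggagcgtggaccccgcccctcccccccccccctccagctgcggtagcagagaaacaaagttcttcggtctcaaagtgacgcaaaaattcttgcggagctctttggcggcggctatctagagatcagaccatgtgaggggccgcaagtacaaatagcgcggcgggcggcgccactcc
Slc36a3 (chr11:55151709-55151958, minus strand): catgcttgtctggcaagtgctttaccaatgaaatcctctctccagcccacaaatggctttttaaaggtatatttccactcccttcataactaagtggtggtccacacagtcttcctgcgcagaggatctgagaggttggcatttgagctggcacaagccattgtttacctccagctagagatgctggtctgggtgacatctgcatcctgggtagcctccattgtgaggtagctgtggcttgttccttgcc
Slc7a11 (chr3:50443614-50443863, minus strand): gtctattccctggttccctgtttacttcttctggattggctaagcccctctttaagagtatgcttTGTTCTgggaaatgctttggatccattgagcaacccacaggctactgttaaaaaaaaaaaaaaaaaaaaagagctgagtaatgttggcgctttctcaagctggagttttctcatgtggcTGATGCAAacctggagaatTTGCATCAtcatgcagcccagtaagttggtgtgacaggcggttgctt
None of these motifs occurred in the 4 windows of genes called at stages VII-VIII, whereas the Slc7a11 window held 2 amino acid response elements, on opposite strands, and 1 androgen receptor half-site. Among all 32851 promoters of the same window, 3.45% held the amino acid response element, 16.1% the androgen receptor half-site and 14% the retinoid receptor half-site. The 44 members with a promoter had 65 promoters, of which 3 held the first, 8 the second and 9 the third. Counted by gene, which is not the unit of those shares, 2 members held the first, 7 the second and 8 the third. The 2 were Slc7a11 and Slc7a7, a light chain for cationic amino acids.

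Over the 5 stage groups together, 3 of 32 members differed by the edgeR F test, or 9.38%, against 8.07% of all genes tested. They were Slc6a4 (edgeR adjusted p = 0.00203), Slc7a14 (edgeR adjusted p = 0.00943) and Slc6a6 (edgeR adjusted p = 0.0333). Slc6a6 carries taurine, and it followed another course than the first pair: it had 3.82 and 12.03 CPM in group A, 10.5 and 36.2 in group B, 28.6 and 38.1 in group C, 14.9 and 27.97 in group D and 3.79 and 4.17 in group E. Its means peaked in group C, and the 2 libraries of group B were far apart. In group E it stood -2.29 on the log2 scale against the other groups (SE 0.56, edgeR adjusted p = 0.0879), which did not pass. The F test call of Slc6a6 was lost without any 1 of the group C, D and E libraries (adjusted p up to 0.173), and that of Slc7a14 without either group D library (up to 0.0676).

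Slc6a4 was also the only member called in groups A and C. In group A (stages XI-XII) it was lower, at -2.66 on the log2 scale (SE 0.48, edgeR adjusted p = 0.0177), where 1.67% of all genes were called, 0.789% higher and 0.886% lower. In group C (stages IV-VI) it was higher by 1.77 on the log2 scale (SE 0.35, edgeR adjusted p = 0.017), where 2.64% of all genes were called, 1.95% higher and 0.691% lower. Leaving out either library of the group in question ended the call, with adjusted p up to 0.0693 in group A and up to 0.103 in group C. No member was called in group B, where 0.0419% of genes were, or in group E, where 0.523% were (0.251% higher and 0.272% lower). At an unadjusted edgeR p under 0.05 there were 6 of 32 members in each. Of all 14331 genes there were 1298 in group B and 1702 in group E. DESeq2 called 0 members in group B and 1, Slc6a6, in group E, and its counts over all genes are given below.

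The most abundant pair moved little across the stage groups. The heavy chain Slc3a2 had 342 and 361 CPM in the group D libraries, against 338 and 294 CPM in group A, 314 and 366 in group B, 328 and 382 in group C and 362 and 432 in group E. Its difference in group D was -0.03 on the log2 scale (SE 0.19, edgeR adjusted p = 0.951). Slc7a5 had 583 and 623 CPM in the group D libraries, against 535 and 499 CPM in group A, 547 and 605 in group B, 442 and 629 in group C and 565 and 518 in group E. Its difference in group D was 0.12 on the log2 scale (SE 0.20, edgeR adjusted p = 0.802). Neither passed the test, and in both genes the group D pair lay within the range of the other groups. By the mean of 2 libraries, 13 of the 32 tested members were highest in group D and 10 in group E. In group A 13 were lowest. These are counts of means, most of which did not differ by test. The same count was not made over all genes, so no excess of members in a group can be read from it.

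**Figure D3:**
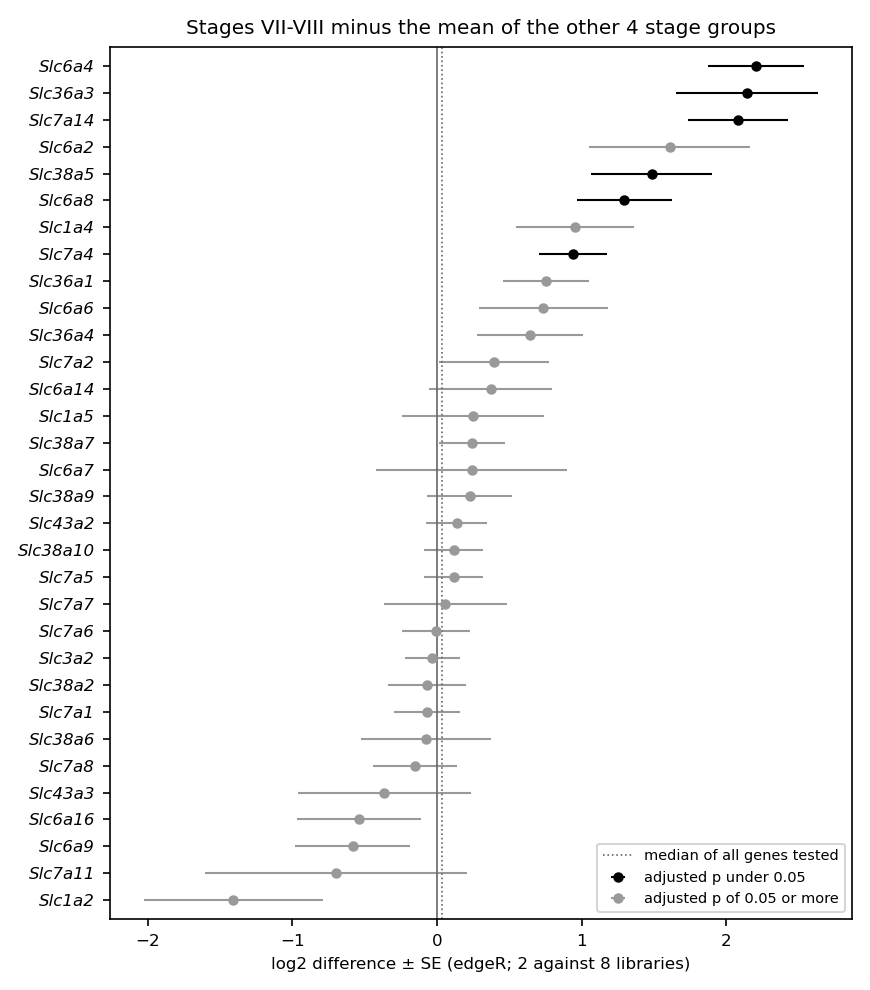
Log2 difference of group D (stages VII-VIII) from the mean of the other 4 stage groups, with its SE, for each of the 32 tested members; black points passed an adjusted p under 0.05 and the dotted line is the median of all genes tested. The 6 called members lie between 0.94 and 2.21, and no member was called lower.

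Genes that make, break down or sense amino acids were counted in the same tests, in which 4.36% of all genes were higher in group D and 4.28% lower. Each list had 0 or 1 gene called in a direction, too few to set a list apart from that background. At stages VII-VIII, 1 of 12 tested glutamine and glutamate enzymes rose and 1 fell. Gpt2, which makes alanine from pyruvate and glutamate, had 128 and 127 CPM in group D, against 41.8 and 42.7 in group A, 65.7 and 73.7 in group B, 119 and 143 in group C and 55.9 and 53.8 in group E. Its difference in group D was 0.87 (SE 0.19, edgeR adjusted p = 0.013). Glul, glutamine synthetase, had 177 and 205 CPM in group D, against 327 and 465 in group A, 371 and 505 in group B, 392 and 429.6 in group C and 242 and 264 in group E. Its difference was -0.98 (SE 0.23, edgeR adjusted p = 0.0181), and both group D libraries were the lowest of the 10. Of 15 tested genes of the amino acid stress response, none rose and 1 fell: Asns, asparagine synthetase, had 96.8 and 111 CPM in group D, against 253 and 186 in group A, 225 and 202 in group B, 145 and 121 in group C and 199.6 and 187 in group E, a difference of -0.88 (SE 0.22, edgeR adjusted p = 0.0223).

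Of 7 tested enzymes of branched-chain amino acid breakdown, 1 rose at stages VII-VIII. It was Ivd, which acts in leucine breakdown and had 324 and 406 CPM in group D, against 71.05 and 58.2 in group A, 88.9 and 121 in group B, 263 and 352 in group C and 79.4 and 70.2 in group E. Its difference was 1.67 (SE 0.20, edgeR adjusted p = 0.000521), and its pattern, like that of Gpt2, was high in groups C and D and low in the rest. Of 24 tested genes of amino acid sensing by mTORC1, 1 rose: Gatsl2, also named Castor2, had 50.998 and 64.03 CPM in group D, against 17.8 and 16.1 in group A, 21.6 and 29.2 in group B, 49.3 and 65.8 in group C and 17.6 and 16.7 in group E, a difference of 1.13 (SE 0.23, edgeR adjusted p = 0.00867). None of 10 arginine and polyamine enzymes and none of 12 amino acid carriers of other families was called in group D.

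In KO testes the days from 42 to 50 ask whether the transporters change through a span of about 1 cycle in germ cell-deficient tubules. Slc38a5 was the only 1 of 31 tested members to differ between days (edgeR F test, adjusted p = 0.0198), or 3.23%, against 0.582% of all 13065 genes tested. It had 149.5 and 117 on day 42, 90.4 and 70.6 on day 43, 79.4 and 69.7 on day 44, 93.8 and 88.3 on day 45, 84.98 and 67.3 on day 46, 72.8 and 86.9 on day 47, 56.3 and 58.1 on day 48, 77.5 and 78.4 on day 49 and 57.9 and 74.6 on day 50, all in CPM. The day 42 pair lay above the 16 later libraries, and the day 48 pair was among the lowest. As a straight line over days it fell by 0.09 log2 units a day (SE 0.02, edgeR adjusted p = 0.0489), a call shared by 0.857% of all genes, 0.367% being lower. The line's call was lost with limma (adjusted p = 0.0799 and 0.0859) and in 12 of the 18 fits that left out 1 library (adjusted p up to 0.204), and the call of the F test with limma on log2(CPM + 0.1) (adjusted p = 0.0615) and in 3 of 18 (up to 0.262), namely without day 42 replicate 1 or either day 48 library.

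Slc6a8, the creatine carrier, came nearest among the others. It had 69.3 and 57.4 on day 42, 40.4 and 50.3 on day 43, 56.97 and 54.7 on day 44, 53.99 and 55.1 on day 45, 76.5 and 88.3 on day 46, 94.4 and 67.8 on day 47, 94.04 and 73.4 on day 48, 64.2 and 62.1 on day 49 and 74.97 and 65.4 on day 50, all in CPM. Day means were highest from day 46 to day 48, but the edgeR F test over days gave an adjusted p of 0.0861. For sine and cosine terms with the 8.6-day period of the mouse cycle the adjusted p was 0.111. By edgeR 0 members and 0% of all genes showed such a rhythm. At an unadjusted edgeR p under 0.05 there were 4 of 31 members, beside 1262 of all 13065 genes. DESeq2 called 57 genes, 1 of them a member, Slc6a8. The 2 libraries of day 49 differed from each other more than those of any other KO day, though less than those of each sorted group. Without that day, a choice made after seeing the data, the F test called Slc6a8 beside Slc38a5. The F test's count over all genes without day 49 is not given here. The line then called Slc38a1 and Slc3a2 beside Slc38a5, while its calls over all genes also rose, as given below. None of the tested genes of the 6 amino acid lists above was called by the 3 tests over days.

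**Figure D4:**
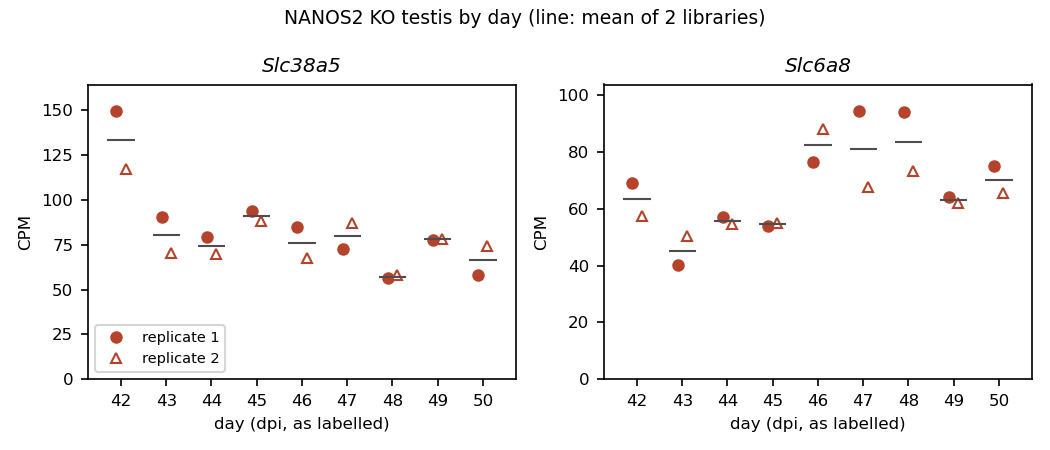
CPM of Slc38a5 and Slc6a8 in each NANOS2 KO library by day; filled circles are replicate 1, open triangles replicate 2, and bars the mean of the 2. Slc38a5 is highest on day 42, at 149.5 and 117 CPM, and Slc6a8 lies between 67.8 and 94.4 CPM on days 46 to 48.

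Set against sorted Sertoli cells, KO testes had more of most transporters. Of 35 tested members, 22 were higher in KO testes and 7 lower. Most genes differed between the sets by the same edgeR test: 62.9% of the tested members were higher and 20% lower, against 38% higher and 47% lower of all 15777 genes. The median log2 difference was 1.22 over the tested members and -0.17 over all genes tested. Scaling moved the median of all genes. With TMM factors, the main choice, 44.7% of all calls were higher. With library totals 56.4% were, the median of all genes was 0.21, and 27 members were higher and 5 lower. Of all 15777 genes, 7557 were then higher and 5849 lower. Scaled on the Sertoli marker list, 40.4% of all calls were higher, the median was -0.32, and 22 members were higher and 8 lower. Of all genes, 5372 were then higher and 7917 lower. In CPM, each KO library exceeded each sorted library for 16 members, or 45.7%, against 23.6% of all genes, and lay below each for 2 members, or 5.71%, against 18.3%. The filter on low counts bears on these counts. Slc1a3, Slc1a6, Slc38a1 and Slc7a3, higher in KO testes, passed it within the KO set but not within the sorted set. Slc1a2, Slc36a3 and Slc7a14, lower in KO testes, passed it within the sorted set but not within the KO set. Slc43a1 passed it in neither set alone. Members that entered through the set where they were high had their direction partly set by the filter. The sets differ in genotype, germ cell content, tissue, sorting and strain, which cannot be told apart here. In bulk RNA fewer cells of a type also cannot be told apart from less RNA per cell.

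Of the carriers of glutamate and small neutral amino acids, 3 of 5 tested Slc1 genes rose and 1 fell. Slc1a5, a carrier of glutamine and other small neutral amino acids, had lowest 67.3, median 87.8, highest 100.2 CPM in KO libraries, against lowest 1.58, median 2.76, highest 5.18 CPM in sorted libraries. The sets did not overlap, and the difference was 4.42 on the log2 scale (SE 0.13, edgeR adjusted p = 6.14e-20). Per kb it stood 10th in KO testes and 26th in sorted cells. Slc1a3, a glutamate carrier known from astrocytes, had lowest 18.5, median 30.1, highest 39.8 CPM in KO libraries, against lowest 0, median 0.478, highest 1.54 CPM in sorted libraries. It had 27 counts over all sorted libraries, and its fitted difference was 5.69 on the log2 scale (SE 0.22, edgeR adjusted p = 2.02e-17); both group B libraries were at 0, so the fitted size depends on the prior count. Slc1a6, another glutamate carrier, averaged 6.09 ± 2.53 CPM in KO testes and 0.844 ± 0.752 CPM in sorted cells, and its difference was 2.43 on the log2 scale (SE 0.33, edgeR adjusted p = 1.93e-07). Slc1a4, a carrier of alanine, serine and cysteine, averaged 10.1 ± 2.41 CPM in KO testes and 8.46 ± 4.500 CPM in sorted cells and did not pass (edgeR adjusted p = 0.992), except with library totals, where it was higher by 0.38.

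Slc1a2, the main glutamate carrier of the forebrain, went the other way. It had 2 counts over the 18 KO libraries and 241 counts over the 10 sorted libraries, or lowest 0, median 0, highest 0.335 CPM in KO libraries, against lowest 0.744, median 5.54, highest 13.00 CPM in sorted libraries. The sets did not overlap (edgeR adjusted p = 8.18e-10). The 3 glutamate carriers tested differed in direction, Slc1a3 and Slc1a6 being higher and Slc1a2 lower in KO testes.

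Among the cationic carriers, which bring in arginine and lysine, all 3 rose. Slc7a1 had lowest 407, median 473, highest 542 CPM in KO libraries, against lowest 121, median 156, highest 182 CPM in sorted libraries, without overlap. Its difference was 1.22 on the log2 scale (SE 0.08, edgeR adjusted p = 8.63e-13). Slc7a2 had lowest 65.9, median 103, highest 114 CPM in KO libraries, against lowest 7.05, median 13.6, highest 22.7 CPM in sorted libraries, again without overlap, and differed by 2.44 on the log2 scale (SE 0.13, edgeR adjusted p = 7.03e-15). Slc7a3 was rare, with 122 counts over the KO libraries and 14 over the sorted ones, both group D libraries being at 0 (edgeR adjusted p = 2.49e-05). Their relatives Slc7a14 and Slc7a4 were called lower. Slc7a14 had lowest 0.303, median 2.12, highest 4.49 CPM in KO libraries, against lowest 1.55, median 4.19, highest 16.7 CPM in sorted libraries, with overlap, and differed by -1.75 on the log2 scale (SE 0.24, edgeR adjusted p = 3.17e-07). Slc7a4 had lowest 192, median 249.0, highest 289 CPM in KO libraries, against lowest 171, median 241, highest 491 CPM in sorted libraries, the KO range lying inside the sorted one. Its difference was -0.52 on the log2 scale (SE 0.09, edgeR adjusted p = 6.97e-06), and with library totals it was -0.13 and did not pass (edgeR adjusted p = 0.155), nor did it with limma (adjusted p = 0.211 and 0.219).

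The heavy chain Slc3a2 had lowest 484, median 578, highest 738 CPM in KO libraries, against lowest 294, median 352, highest 432 CPM in sorted libraries. The sets did not overlap in CPM, and the difference was 0.39 on the log2 scale (SE 0.06, edgeR adjusted p = 3.56e-06). Its light chains differed among themselves. Slc7a5 had lowest 606, median 806, highest 896 CPM in KO libraries, against lowest 442, median 556, highest 629 CPM in sorted libraries. The ranges overlapped slightly, and the difference was 0.09 on the log2 scale (SE 0.08, edgeR adjusted p = 0.322), not called, while with library totals it was 0.47 and was called (edgeR adjusted p = 4.95e-06). Slc7a8 had lowest 233, median 393, highest 494 CPM in KO libraries, against lowest 20.7, median 47.6, highest 62.1 CPM in sorted libraries, without overlap, and differed by 2.72 on the log2 scale (SE 0.13, edgeR adjusted p = 2.45e-16). Slc7a11 averaged 16.1 ± 4.74 CPM in KO testes and 1.61 ± 1.33 CPM in sorted cells, and differed by 3.14 on the log2 scale (SE 0.26, edgeR adjusted p = 3.18e-11). Slc7a7 averaged 13.7 ± 2.82 CPM in KO testes and 3.702 ± 1.19 CPM in sorted cells, and differed by 1.53 on the log2 scale (SE 0.17, edgeR adjusted p = 8.63e-09). Slc7a6, which like Slc7a7 exchanges cationic for neutral amino acids, averaged 129.8 ± 13.4 CPM in KO testes and 111 ± 16.5 CPM in sorted cells and was not called (edgeR adjusted p = 0.0689); its direction turned with the scaling, called higher with library totals at 0.22 and lower on the Sertoli marker list at -0.31.

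Of the Slc38 carriers, 5 of 7 rose and 1 fell. Slc38a2, a sodium-coupled carrier of alanine, glutamine and other small neutral amino acids, had lowest 219, median 266, highest 317 CPM in KO libraries, against lowest 42.5, median 61.9, highest 87.3 CPM in sorted libraries. The sets did not overlap, and the difference was 1.68 on the log2 scale (SE 0.10, edgeR adjusted p = 2.44e-14). Slc38a1, a close relative with glutamine as a main cargo, had lowest 17.7, median 35.2, highest 92.7 CPM in KO libraries, against lowest 0, median 0.856, highest 1.52 CPM in sorted libraries. It had 30 counts over the sorted libraries, with both group B libraries at 0, and its fitted difference was 5.89 on the log2 scale (SE 0.34, edgeR adjusted p = 3.91e-14). Slc38a5 averaged 81.9 ± 22.5 CPM in KO testes and 40.98 ± 28.6 CPM in sorted cells, and differed by 0.84 on the log2 scale (SE 0.17, edgeR adjusted p = 6.13e-05); its group D libraries, at 94.2 and 64.8 CPM, lay within the KO range. Slc38a6 (difference 1.42) and the lysosomal Slc38a7 (difference 0.40) were also called higher, and Slc38a9 was not called (edgeR adjusted p = 0.0687), except with library totals or the relative log expression (RLE) factors of DESeq2, where it was higher by 0.60 and 0.28. Slc38a10 fell: it had lowest 139, median 153, highest 285 CPM in KO libraries, against lowest 165, median 189.8, highest 240.5 CPM in sorted libraries. The ranges overlapped, and the difference was -0.63 on the log2 scale (SE 0.09, edgeR adjusted p = 2.90e-07).

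Of the 6 tested Slc6 genes, 4 rose and 1 fell. Slc6a4, the serotonin carrier, had lowest 56.1, median 83.4, highest 98.2 CPM in KO libraries, against lowest 1.15, median 5.003, highest 18.98 CPM in sorted libraries. No sorted library, those of group D included, came near the lowest KO library, and the difference was 3.53 on the log2 scale (SE 0.14, edgeR adjusted p = 8.48e-18). The taurine carrier Slc6a6 averaged 71.5 ± 12.8 CPM in KO testes and 18.01 ± 13.5 CPM in sorted cells and differed by 1.94 on the log2 scale (SE 0.18, edgeR adjusted p = 1.83e-10). Slc6a8 averaged 66.6 ± 14.97 CPM in KO testes and 16.3 ± 9.798 CPM in sorted cells and differed by 1.80 on the log2 scale (SE 0.13, edgeR adjusted p = 1.40e-12). The glycine carrier Slc6a9 averaged 21.9 ± 2.53 CPM in KO testes and 7.76 ± 4.11 CPM in sorted cells, and differed by 1.25 on the log2 scale (SE 0.13, edgeR adjusted p = 1.88e-09); its exons overlap Ccdc24 on the other strand by 1429 bases. Slc6a14, a carrier of neutral and cationic amino acids, averaged 32.3 ± 7.39 CPM in KO testes and 27.2 ± 14.9 CPM in sorted cells and was not called (edgeR adjusted p = 0.994), except with library totals, where it was higher by 0.38. Slc6a16, an orphan member, had lowest 5.099, median 9.07, highest 13.6 CPM in KO libraries, against lowest 8.98, median 14.5, highest 30.1 CPM in sorted libraries; it fell, with overlapping ranges and a difference of -1.26 on the log2 scale (SE 0.18, edgeR adjusted p = 3.42e-07).

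The neighbours Slc36a1 and Slc36a3 on chromosome 11 differed in opposite directions. Slc36a1, a proton-driven carrier of small neutral amino acids, averaged 61.8 ± 6.99 CPM in KO testes and 33.1 ± 14.2 CPM in sorted cells, a difference of 0.59 on the log2 scale (SE 0.11, edgeR adjusted p = 4.31e-05). Slc36a3 had 8 counts over the 18 KO libraries and 386 counts over the 10 sorted libraries, or lowest 0, median 0, highest 0.723 CPM in KO libraries, against lowest 0.725, median 7.91, highest 32.7 CPM in sorted libraries. The sets did not overlap (edgeR adjusted p = 2.24e-10), but only just. The highest KO value was 0.7225 CPM (day 49 replicate 2) and the lowest sorted value 0.7252 CPM (group C replicate 1). Both lay under the CPM of 3 counts in their library. Slc36a4, which has a high affinity for proline and tryptophan, averaged 36.2 ± 3.66 CPM in KO testes and 8.28 ± 2.94 CPM in sorted cells and differed by 1.79 on the log2 scale (SE 0.13, edgeR adjusted p = 2.04e-12). Of the Slc43 genes, Slc43a2, a carrier of large neutral amino acids, had lowest 144, median 178, highest 235 CPM in KO libraries, against lowest 99.7, median 191, highest 234 CPM in sorted libraries. The KO range lay almost inside the sorted one, and the difference was -0.43 on the log2 scale (SE 0.08, edgeR adjusted p = 9.97e-06); with library totals it was -0.05 and did not pass (edgeR adjusted p = 0.555), nor did it with limma (adjusted p = 0.581 and 0.569). Its relative Slc43a1 was rare, with 91 counts over the KO libraries and 21 over the sorted ones, and was called higher (edgeR adjusted p = 0.00135). Without day 47 replicate 2 that day was left at 0 counts and the Slc43a1 call was lost. Slc43a3, which carries purine bases, averaged 4.92 ± 2.24 CPM in KO testes and 5.24 ± 2.98 CPM in sorted cells and was not called (edgeR adjusted p = 0.164).

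**Figure D5:**
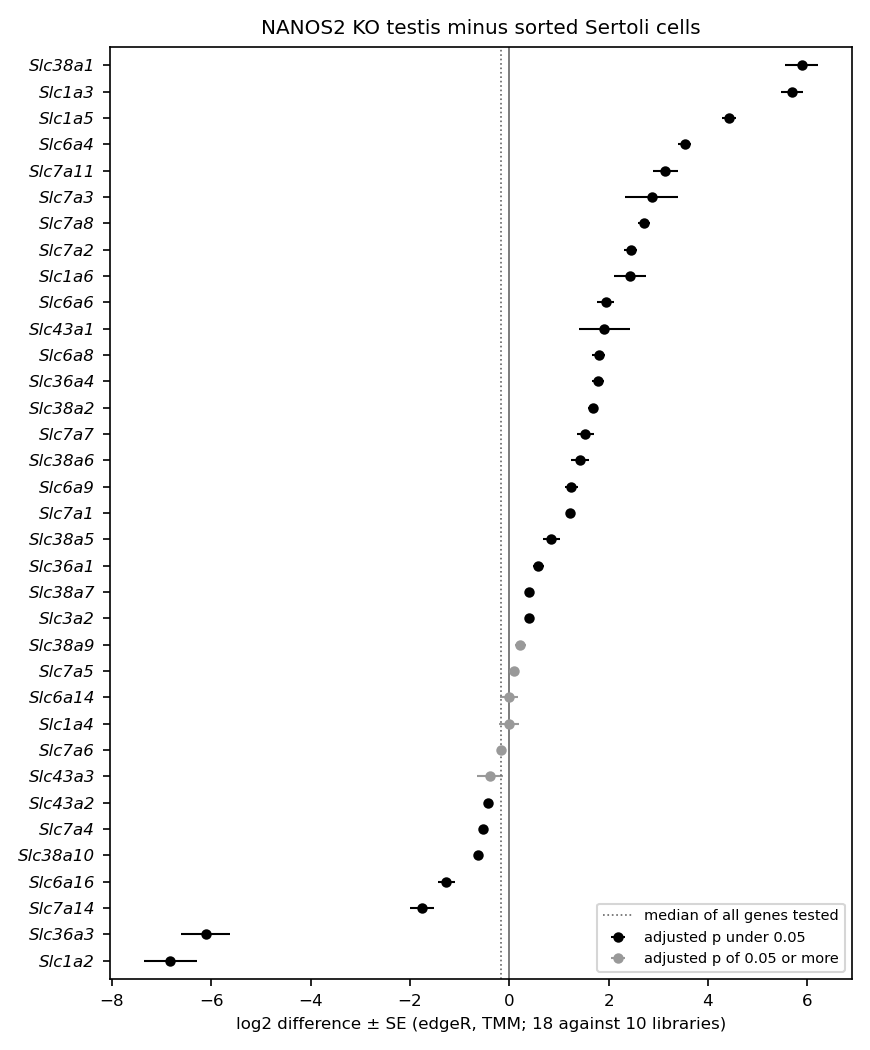
Log2 difference of NANOS2 KO testes from sorted Sertoli cells, with its SE, for each of the 35 tested members; black points passed an adjusted p under 0.05 and the dotted line is the median of all genes tested, -0.17. Differences run between -6.83 for Slc1a2 and 5.89 for Slc38a1, and those of Slc1a2, Slc36a3, Slc1a3, Slc38a1, Slc7a3 and Slc43a1 rest on at least 1 group at 0 counts.

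Of the 6 members higher at stages VII-VIII within the sorted set, 3 were higher in KO testes than in sorted cells (Slc6a4, Slc6a8 and Slc38a5) and 3 were lower (Slc7a14, Slc36a3 and Slc7a4). The same sorted libraries enter both comparisons. Marker sums of other cells also differed between the sets, in both directions. The Leydig cell sum ran between 2881 and 7997 CPM over KO libraries and between 69.3 and 458 CPM over sorted libraries. Insl3 and Lhcgr were at 0 in all sorted libraries. The stroma sum ran between 1071 and 2187 CPM over KO libraries and between 97.8 and 169.9 CPM over sorted libraries. The elongating spermatid sum ran between 184 and 246 CPM over KO libraries and between 4274 and 21543 CPM over sorted libraries, with Akap4, Smcp and Cabs1 at 0 in all KO libraries. The sum of 5 blood markers averaged 77.5 CPM in KO testes and 409 CPM in sorted cells. The part of these cells in the transporter differences was not tested.

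Enzymes of arginine supply were counted beside the cationic carriers. Of 10 tested arginine and polyamine enzymes, 5 rose and 3 fell in KO testes with TMM factors, 6 rose and 2 fell with library totals, and 4 rose and 3 fell on the Sertoli marker list. Ass1, argininosuccinate synthase, averaged 432 ± 72.5 CPM in KO testes and 16.1 ± 11.8 CPM in sorted cells, a log2 difference of 4.61 (SE 0.20, edgeR adjusted p = 5.44e-17). Asl, which completes the making of arginine, averaged 84.9 ± 8.59 CPM in KO testes and 8.43 ± 2.58 CPM in sorted cells, a difference of 2.95 (SE 0.11, edgeR adjusted p = 5.62e-18). Odc1, which opens polyamine synthesis, averaged 93.4 ± 10.3 CPM in KO testes and 239 ± 43.8 CPM in sorted cells, a difference of -1.73 (SE 0.09, edgeR adjusted p = 1.16e-15). Arg1, which splits arginine, averaged 0.667 ± 0.6996 CPM in KO testes and 5.13 ± 3.15 CPM in sorted cells, a difference of -3.01 (SE 0.50, edgeR adjusted p = 5.38e-06).

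Of 12 tested glutamine and glutamate enzymes, 7 rose and 2 fell with TMM factors, 10 rose and 1 fell with library totals, and 7 rose and 4 fell on the Sertoli marker list. Glul averaged 1030 ± 116 CPM in KO testes and 338 ± 113 CPM in sorted cells, a difference of 1.29 (SE 0.08, edgeR adjusted p = 2.44e-13). Gpt2 averaged 437 ± 83.00 CPM in KO testes and 85.1 ± 39.6 CPM in sorted cells, a difference of 2.10 (SE 0.08, edgeR adjusted p = 6.16e-18). Gls2, a glutaminase, averaged 4.34 ± 1.73 CPM in KO testes and 21.4 ± 11.4 CPM in sorted cells, a difference of -2.48 (SE 0.21, edgeR adjusted p = 4.17e-11). The other called lower, Gclm, was not called with library totals.

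Of 17 tested genes of the amino acid stress response, 6 rose and 10 fell, or 7 rose and 7 fell with library totals and 5 rose and 10 fell on the Sertoli marker list. Nupr1 averaged 10.6 ± 2.69 CPM in KO testes and 0.224 ± 0.217 CPM in sorted cells and Cebpb 6.15 ± 3.01 CPM in KO testes and 1.59 ± 1.301 CPM in sorted cells, both called higher. Enzymes of serine and asparagine synthesis were among those lower: Phgdh averaged 149 ± 31.3 CPM in KO testes and 282 ± 112 CPM in sorted cells, a difference of -1.25 (SE 0.10, edgeR adjusted p = 1.19e-11). Asns averaged 106 ± 17.1 CPM in KO testes and 173 ± 51.9 CPM in sorted cells, a difference of -1.04 (SE 0.08, edgeR adjusted p = 8.19e-12). Of 8 enzymes of branched-chain amino acid breakdown, 5 rose and 2 fell, or 6 rose and 1 fell with library totals. Dbt, a subunit of the branched-chain keto acid dehydrogenase, averaged 60.6 ± 9.45 CPM in KO testes and 14.1 ± 3.61 CPM in sorted cells, a difference of 1.72 (SE 0.13, edgeR adjusted p = 6.04e-12). Bckdha, another subunit of the same complex, averaged 158 ± 13.4 CPM in KO testes and 251 ± 52.4 CPM in sorted cells, a difference of -1.03 (SE 0.07, edgeR adjusted p = 2.04e-12).

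Of 24 tested genes of amino acid sensing by mTORC1, 7 rose and 9 fell with TMM factors, 14 rose and 5 fell with library totals, and 2 rose and 13 fell on the Sertoli marker list. Rps6kb1, a kinase downstream of mTORC1, averaged 69.6 ± 6.598 CPM in KO testes and 23.2 ± 7.77 CPM in sorted cells, a difference of 1.22 (SE 0.13, edgeR adjusted p = 2.31e-09). Lamtor1, which anchors the sensing complex at the lysosome, averaged 41.2 ± 5.57 CPM in KO testes and 65.1 ± 16.1 CPM in sorted cells, a difference of -1.03 (SE 0.09, edgeR adjusted p = 6.11e-11). Of 12 tested amino acid carriers of other families, 7 rose and 4 fell, or 8 rose and 4 fell with library totals. Slc25a22, a mitochondrial glutamate carrier, averaged 38.2 ± 8.34 CPM in KO testes and 3.17 ± 1.52 CPM in sorted cells, a difference of 3.21 (SE 0.18, edgeR adjusted p = 7.07e-15). Slc25a13, the mitochondrial aspartate-glutamate carrier of liver, averaged 14.4 ± 4.55 CPM in KO testes and 58.4 ± 35.4 CPM in sorted cells, a difference of -2.23 (SE 0.16, edgeR adjusted p = 1.54e-12). With TMM factors 38% of all genes were higher and 47% lower. Of all 15777 genes, 7557 were higher and 5849 lower with library totals, and 5372 were higher and 7917 lower on the Sertoli marker list. Beside these backgrounds, which moved with the scaling, the lists held both directions, and each was counted without a test of the list.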

How the data were processed

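Poly(A) RNA of 18 NANOS2 KO testis libraries and 10 sorted Sertoli cell libraries was measured. The deposited counts are whole reads per gene; Bowtie, TopHat, Cufflinks and mm10 are named in the submitters' processing notes, and no source states how reads were counted or whether by strand. Another pair of deposited tables, named for FPKM, holds CPM: its values equal the counts scaled to the library total within 0.0005. In the KO counts 2 columns carry the heading of day 42 replicate 1, and their numbers were taken from the labelled CPM columns of equal values. Spreadsheet software had turned 27 symbols into dates, none of them a member. The labels give Sertoli cells for the KO libraries although whole testis was used, speak of germ cells in the RNA protocol, and give group A replicate 1 an Amh-Cre background where the other 9 sorted libraries have 129s4/SvJae.

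Counts were tested with edgeR 4.0.16 in R 4.3.3 (TMM factors, filterByExpr, quasi-likelihood), with Benjamini-Hochberg adjustment over all genes and a threshold of 0.05, in 3 fits: the 18 KO libraries (days, a straight line, and an 8.6-day cycle), the 10 sorted libraries over 5 groups, and all 28 libraries. SE is the log2 difference divided by the square root of F. Alternatives were RLE factors, no filter, DESeq2 1.42.0, limma 3.58.1 on log2(CPM + 1) or log2(CPM + 0.1) of the deposited counts, a replicate block, leaving out each library, library totals, the Sertoli marker list as scaling and, chosen after seeing the data, leaving out day 49. The fits were tested on simulated data. Exon lengths, positions and overlaps came from GENCODE M21 (GRCm38, the mm10 assembly), in which all 62 members were found; promoters came from RefSeq.

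Values per library were given for called members, up to 8 in each direction by smallest p for each comparison, the 3 most abundant members of each set, and the heavy chains with their most expressed light chains; of each pathway list, up to 2 called genes in each direction were named. Other members are named for their place in a family, after their values were seen. Members and lists were chosen with earlier results of these data known. At library totals of 1336742 to 5279746, 3 counts correspond to 0.568 to 2.24 CPM.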

Additional observations from a re-analysis of the deposited data

How the results depend on the processing

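For group D, 6 members were called with the main settings, RLE factors, DESeq2 and the replicate block, 8 with no filter, and 5 and 4 with limma. No called difference of a member changed sign under these alternatives. For group D the count over all genes is given below only for the main settings and for no filter. With no filter on low counts, the F test over stage groups called 10 members, group B 2, group C 3, group E 2, the F test over KO days 3 and the cycle 1. With DESeq2 these were 8 for the stage F test, 2 for group C, 1 for group E, 2 for KO days and 1 for the cycle. limma called 0 members for the line over days with either pseudocount, and 0 for KO days with 0.1. Without day 49, KO days called 2 and the line 3. Leaving out 1 library gave 1 to 7 calls for the stage F test, 0 to 2 for group A, 0 to 1 for group B, 0 to 2 for group C, 1 to 8 for group D, 0 to 3 for group E, 0 to 3 for KO days, 0 to 2 for the line, 0 for the cycle and 30 to 33 for KO against sorted, against 29 in the main test. A lone library left in a group lowers the filter's minimum group size, so more genes are tested, and it is assumed to vary like the other groups. Counts over all genes in the fits without 1 library are not given here, so no excess of members can be read from them. The causes of the other changes were not tested.

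Over all genes, the stage F test called 1156 genes, 2764 with no filter and 1997 with DESeq2. Group A called 240 genes, 901 with no filter, 527 with DESeq2 and 477 with the block; group B 6, 307, 112 and 24, and 0 and 1 with limma. Group C called 379 genes, 988 with no filter and 649 with DESeq2, group D 1239 and 1932 with no filter, and group E 75, 651 with no filter, 294 with DESeq2, 49 with limma on log2(CPM + 0.1) and 170 with the block. KO days called 76 genes, 968 with no filter, 217 with DESeq2, and 38 and 23 with limma. The line called 112 genes, 212 with DESeq2, 25 and 21 with limma, 65 with the block and 309 without day 49. The cycle called 0 genes, 359 with no filter, 57 with DESeq2 and 7 without day 49.

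Replicate numbers were taken to pair samples only if same-numbered libraries deviated together, with a correlation above 0.1, in every pair of groups. This held in 2 of 36 pairs of KO days (median -0.02) and in 6 of 10 pairs of sorted groups (median 0.274, highest 0.537, lowest -0.147), so a partial pairing of the sorted libraries was seen but the condition was not met. With a replicate block the stage F test called 6 members, group C 2, group E 1 and the line over days 0, and KO against sorted 29. Of these tests, only group E and the line have their block counts over all genes given above, so no excess of members can be read from the others.

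Depth limits the rare members: at 2 libraries a group, differences of genes with a few counts a library, such as Slc7a3 and Slc43a1, are known only roughly.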

Other observations

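Some members left out of the comparison of sets by the filter on low counts were read mostly in 1 set. They were chosen after their values were seen, and the sets were not compared by test for them. Slc1a1, a glutamate carrier known from neurons and kidney, had 100 counts over the KO libraries and 12 over the sorted libraries, or 2.13 ± 1.06 CPM in KO testes and 0.284 ± 0.181 CPM in sorted cells (SD, n = 18 and 10); its exons overlap 4430402I18Rik on the other strand by 2631 bases. Slc6a2, the noradrenaline carrier, had 5 counts over the KO libraries and 74 over the sorted libraries. Within the sorted set Slc6a2 had 2.98 and 4.97 CPM in the group D libraries, against 1.91 and 0.388 CPM in group A, 0.526 and 0.961 in group B, 1.09 and 1.22 in group C and 1.52 and 3.51 in group E, and its difference in group D, 1.61 on the log2 scale (SE 0.56, edgeR adjusted p = 0.096), did not pass. The GABA carrier Slc6a11 had 2 counts over the KO libraries and 30 over the sorted libraries, and the betaine carrier Slc6a12 had 0 counts over the KO libraries and 9 over the sorted libraries. The proline carrier Slc6a7 had 23 counts over the KO libraries and 67 over the sorted libraries.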
